A study of Mus musculus with 44 samples.

Results

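The lysosome was followed here through 40 mouse gene symbols: 12 proteases, 6 lipid hydrolases and their activators, 2 cholesterol transporters, 6 glycosidases, 2 acid phosphatases, 5 membrane proteins, 5 subunits of the proton pump, and the regulator TFEB with the channel MCOLN1. The members were taken by symbol from a list put together with earlier results of these data known. Of the 40, 37 had a row among the 8218 genes of the in vivo table, which lacked CTSK, ATP6V0D2 and TFEB. Among cultured cells 39 had a row among 12335 genes, TFEB being the exception. The study sequenced total RNA of C57BL/6 mice in 44 libraries, 21 of them from cells sorted out of the contused spinal cord and 23 from cells in culture. All sorted cells, those at time 0 included, carry the label of a 200 kdyn contusion after laminectomy at T12. Sorted monocytes were taken at 16 h, day 1, day 3 and day 7 with 2 libraries each. Sorted microglia were taken at 1 h, 16 h, day 1, day 3 and day 7 with 2 libraries each, and at time 0 with 3. The cultured cells were bone marrow macrophages grown with the growth factor M-CSF and microglia from the primary glial culture of newborn mice. Both received 100 ng/ml of the cytokine TGFb1 and were taken at 0, 1, 3, 6, 16 and 20 h, with 2 libraries at each time and 1 for macrophages at 6 h. The 0 h cultures carry the label of TGFb1 like the rest, and no untreated culture of a later time was analysed here, so that hours with TGFb1 and hours in culture cannot be told apart. One microglia library of 1 h carries a time tag of 2 h and was placed by its title. No label names the markers used in the sort, and none says that the libraries of a group stem from different mice or dishes. The spread behind the p-values is therefore that between libraries and may be technical.

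Lysosomes are acidic compartments in which macrophages and microglia break down what they engulf, such as myelin, dead cells and lipoproteins after an injury of the nervous system. A proton pump made of a membrane ring and a catalytic head acidifies them, cathepsins and glycosidases cut proteins and sugar chains, and acid lipase together with NPC1 and NPC2 frees and exports cholesterol. Many of these genes share a short promoter element through which the transcription factor TFEB, released from the nutrient sensor mTORC1, can raise them together.

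Values are coverage as the authors scaled it, called scaled coverage here, in which 1 stands for a gene without a read. A single read was worth 0.170 to 0.850 in monocyte libraries and 0.853 to 4.67 in sorted microglia, against 0.972 to 1.48 in macrophages and 0.725 to 0.928 in cultured microglia. Where a read was worth less than 1, a gene without a read was thus listed above a gene with 1 read. The libraries held an estimated 132117 to 728109 reads in monocytes and 30505 to 185670 in sorted microglia. In culture they held 1171514 to 1879803 reads in macrophages and 1746405 to 2249042 in microglia. The 2 tables were scaled separately and no level is compared between them. The 11 neutrophil markers with a row came to 0.1005 to 0.528% of coverage in monocytes, against 4.33 to 22.7% in sorted microglia. The 10 microglial markers made up 0.0202 to 0.248% of monocytes and only 0.0836 to 0.682% of sorted microglia. Over the 13 sorted microglia libraries CX3CR1 ran from 18.7 to 116, TMEM119 from 1.00 to 185, OLFML3 from 1.00 to 213, FCRLS from 1.00 to 72.3 and P2RY12 from 1.00 to 15.04. Of 8 monocyte markers, 5 were higher in monocytes than in sorted microglia at 16 h and day 1. The 2 microglia libraries of day 3 differed most, with neutrophil shares of 16.9% and 4.33%. Erythroid RNA exceeded 0.1% in 4 sorted libraries, namely microglia 1 h replicate 1, 16 h replicate 2 and day 1 replicate 2, and monocytes day 1 replicate 1. The part of these other cells in the results below was not tested beyond the values given beside them. In the cultured microglia the microglial markers CX3CR1 and FCRLS were both detected in every library, and the 10 microglial markers with a row came to 0.674 to 0.973% of coverage. The astrocyte markers came to 0.0366 to 0.0519%, the oligodendrocyte markers to 0.0626 to 0.0784% and the neuronal markers to 0.0130 to 0.0170%.

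The promoter element bound by TFEB was looked for in 300 bases around each start site (250 before and 50 after it, RefSeq, mouse build GRCm38.p6). Of the 40 members 34 had an entry, and CTSB, CTSH, NPC1, ASAH1, ATP6V0D2 and ATP6V1B2 had none. The letters TCACGTGA, the same on both strands, occurred in 6 of the 34 (ATP6V0D1, ATP6V1A, CTSA, CTSD, GLA and MCOLN1), or 17.65%, against 1.125% of 27025 genes. The shorter letters CACGTG, which lie within them, occurred in 11 of the 34, or 32.35%, against 8.093% of genes. With a G before and a C after these letters, the fuller form of the element, TCACGTGA occurred in 0 of the 34 and in 0.37% of genes. A match describes these letters and no more. Windows of 4 members are shown because their transcripts went different ways under TGFb1 in the macrophages described next, where CTSD was higher, CTSA and ATP6V1A were lower, and ATP6V0D1 did not pass. They were picked after these values were seen. A gene with several start sites counted where any of its windows matched. CTSA had a further window, not shown, in which neither TCACGTGA nor CACGTG occurred. Capitals mark TCACGTGA or CACGTG, and each window reads along its gene.
CTSD, chr7:142387778-142388077, minus strand: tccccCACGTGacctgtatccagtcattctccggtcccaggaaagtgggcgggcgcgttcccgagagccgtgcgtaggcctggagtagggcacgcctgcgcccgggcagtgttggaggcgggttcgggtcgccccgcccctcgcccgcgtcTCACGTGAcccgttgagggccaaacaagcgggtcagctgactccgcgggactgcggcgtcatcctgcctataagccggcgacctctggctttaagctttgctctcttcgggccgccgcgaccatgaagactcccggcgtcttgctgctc
CTSA, chr2:164833523-164833822, plus strand: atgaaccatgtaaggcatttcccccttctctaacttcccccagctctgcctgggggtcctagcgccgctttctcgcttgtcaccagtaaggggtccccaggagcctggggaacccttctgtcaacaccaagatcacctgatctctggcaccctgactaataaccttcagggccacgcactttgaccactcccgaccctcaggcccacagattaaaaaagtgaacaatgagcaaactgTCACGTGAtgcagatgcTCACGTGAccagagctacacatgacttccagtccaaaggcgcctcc
ATP6V1A, chr16:44139210-44139509, minus strand: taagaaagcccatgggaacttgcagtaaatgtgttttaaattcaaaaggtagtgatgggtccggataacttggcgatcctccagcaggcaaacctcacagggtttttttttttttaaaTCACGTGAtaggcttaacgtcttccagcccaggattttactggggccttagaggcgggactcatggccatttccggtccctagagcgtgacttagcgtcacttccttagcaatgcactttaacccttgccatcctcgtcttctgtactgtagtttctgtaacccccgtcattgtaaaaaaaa
ATP6V0D1, chr8:105566015-105566314, minus strand: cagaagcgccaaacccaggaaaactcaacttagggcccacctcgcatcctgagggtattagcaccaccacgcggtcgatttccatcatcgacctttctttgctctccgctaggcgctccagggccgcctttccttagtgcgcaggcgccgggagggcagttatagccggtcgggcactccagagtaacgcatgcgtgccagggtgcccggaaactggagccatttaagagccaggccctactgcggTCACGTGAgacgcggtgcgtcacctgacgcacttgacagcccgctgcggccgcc

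As a whole the members took a larger part of the coverage of cultured microglia at later hours of TGFb1, and nearly all of the difference was CTSD, the gene of the aspartic protease cathepsin D. The summed share of the members was 6.27% ± 0.118 (SD, n = 2) at 0 h, 6.60% ± 0.119 at 3 h, 7.57% ± 0.0417 at 16 h and 7.74% ± 0.00813 at 20 h. CTSD alone made up 23.02 to 34.1% of the members' coverage in macrophages and 44.8 to 55.5% in cultured microglia. Without CTSD the share of the members lay between 3.42 and 3.51% in all 12 microglia libraries. In macrophages the share without CTSD was 4.30% ± 0.00674 at 0 h, 4.04% ± 0.0853 at 3 h, 3.72% in the single library of 6 h, 3.63% ± 0.0503 at 16 h and 3.96% ± 0.0750 at 20 h (n = 2 at the other times). Coverage is not divided by transcript length, so these are shares of coverage and not of transcripts.

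**Figure D1:**
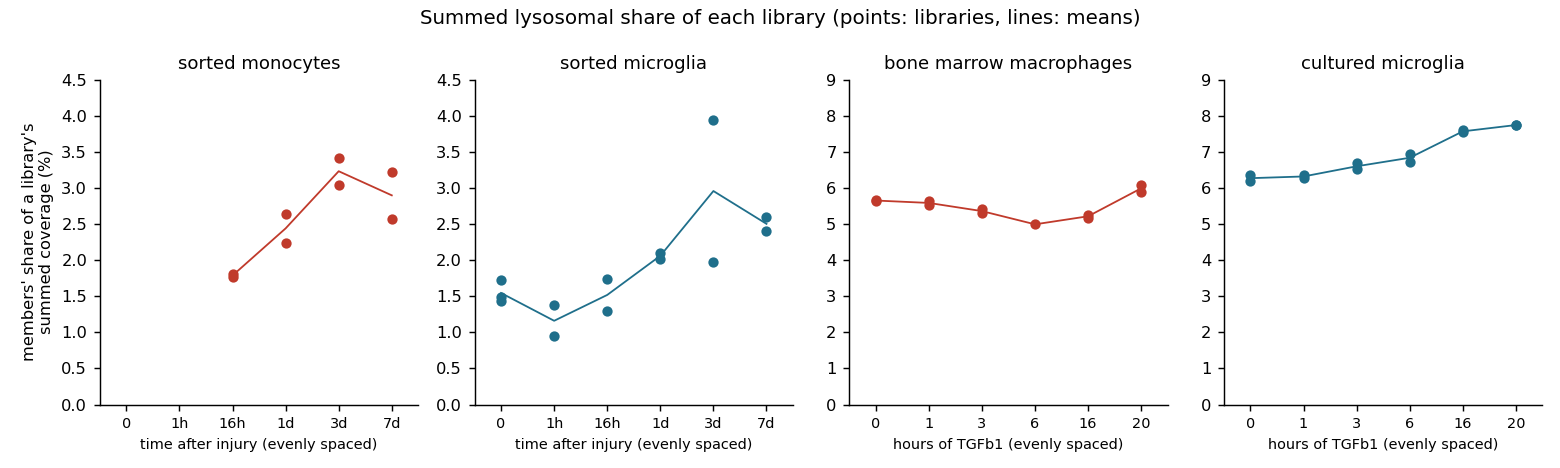
Summed share of the lysosomal members (y axis, percent of a library's summed scaled coverage; 37 genes in the 2 left panels and 39 in the 2 right ones) by time after injury or hours of TGFb1 (x axis, evenly spaced). Points are libraries and lines join the means of each time. Cultured microglia stand at 6.27% at 0 h and 7.74% at 20 h, and the 2 sorted microglia libraries of day 3 lie far apart.

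In bone marrow macrophages more of these genes were lower than higher after TGFb1. After 16 and 20 h, 13 of 39 members were lower and 6 higher than at 0 h (limma on log2 of scaled coverage + 1, adjusted p under 0.05). Of all 12335 genes 5.94% were lower and 6.32% higher. The median SE was 0.07 over the members and 0.26 over all genes, so a change of a given size passed more easily in the members. The share of all genes is therefore not a like measure for the members' count. In every other comparison, in culture and in vivo, the members had the smaller median SE as well. The members' median log2 difference was -0.06, and that of all genes was 0 to the second decimal. With quantile normalization, which by its construction holds down changes of the most abundant genes, the count was 9 lower and 8 higher. The calls were spread by role, with 4 of 5 pump subunits lower and none higher, 3 proteases lower and 3 higher among 12, and 2 membrane proteins lower and 2 higher among 5.

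Of the 5 proton pump subunits 4 were lower in macrophages at 16 and 20 h. ATP6V1B2, a subunit of the catalytic head, had 926 and 911 at 16 h and 978 and 883 at 20 h, against 1731 and 1705 at 0 h, a 1.86-fold fall (log2 -0.89, SE 0.05, limma adjusted p = 7.7e-10). ATP6V1A, its catalytic partner, had 368, 328, 366 and 333 at 16 and 20 h, against 636 and 529 at 0 h (log2 -0.73, SE 0.08, limma adjusted p = 2.3e-06). In both genes the 4 late libraries lay below both at 0 h. ATP6V0C, which forms the proton-carrying ring, had 1224, 1222, 1157 and 1212, against 1823 and 1805 (log2 -0.59, SE 0.05, limma adjusted p = 2.3e-08). ATP6V0D2, the form of the stalk subunit found in osteoclasts and macrophages, had 71.2, 99.1, 89.6 and 108, against 230 and 199 (log2 -1.23, SE 0.19, limma adjusted p = 0.00012). Its broadly expressed paralogue ATP6V0D1 had 515, 480, 557 and 461, against 490 and 509, and did not pass. The 2 forms of the stalk subunit so gave different readings in the same libraries, 1 below its 0 h range and 1 around it.

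Among the lipid genes 2 of 6 hydrolases and 1 of 2 cholesterol transporters were lower, and none was higher. LIPA, the acid lipase that cleaves cholesteryl esters and triglycerides, had 1481 and 1538 at 16 h and 1683 and 1674 at 20 h, against 3087 and 3067 at 0 h (log2 -0.95, SE 0.03, limma adjusted p = 1.6e-13). Its fall had the smallest p of all members, and its lowest value, 1276, came in the single library of 6 h. NPC2, the soluble cholesterol carrier, had 2491, 2467, 2555 and 2718 at 16 and 20 h, against 3552 and 3393 (log2 -0.44, SE 0.04, limma adjusted p = 3.7e-08). PSAP, the precursor of the saposins that activate sphingolipid hydrolases, had 9081, 8869, 9966 and 10469, against 12282 and 11999 (log2 -0.34, SE 0.03, limma adjusted p = 4.6e-08). With quantile normalization PSAP no longer passed. NPC1, the membrane exporter of cholesterol, had 297.7 to 392.4 against 398 and 406 and did not pass at this time, nor did ASAH1, GM2A, SMPD1 or PPT1.

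The cathepsins split in macrophages. CTSC, which activates serine proteases of immune cell granules, had 367 and 345 at 16 h and 306 and 306 at 20 h, against 124 and 95.5 at 0 h, a 3.02-fold rise (log2 1.59, SE 0.10, limma adjusted p = 1.3e-09). CTSH, an aminopeptidase, had 433, 579, 743 and 750, against 260 and 246 (log2 1.27, SE 0.09, limma adjusted p = 9.6e-09). CTSD had 26749 and 26354 at 16 h and 32704 and 34781 at 20 h, against 23732 and 22887 (log2 0.36, SE 0.03, limma adjusted p = 3.5e-08). The late libraries lay above both at 0 h in all 3 genes. CTSB, a cysteine protease, moved the other way, with 9196, 9079, 9181 and 9845 against 12120 and 12048 (log2 -0.37, SE 0.03, limma adjusted p = 8.0e-08), a fall that was not called with quantile normalization. CTSA, the carboxypeptidase that shields beta-galactosidase and sialidase, had 2723, 2708, 2991 and 2928, against 3692 and 3508 (log2 -0.34, SE 0.04, limma adjusted p = 8.3e-06). CTSZ, another carboxypeptidase, had 3242, 2919, 3015 and 3237, against 3882 and 3542 (log2 -0.26, SE 0.04, limma adjusted p = 0.00038). The collagen-cutting CTSK had 46.6, 32.2, 44.8 and 23.1, against 64.5 and 69.8, and did not pass, and neither did CTSL at 3269 to 3992 against 3522 and 3876 or CTSS at 5673 to 6863 against 6034 and 6221.

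Of the 5 membrane proteins 2 were higher and 2 lower, and of the 6 glycosidases 1 was higher and 1 lower. SCARB2, the carrier that brings glucocerebrosidase to the lysosome, had 242, 247, 327 and 312, against 136 and 142 (log2 1.01, SE 0.10, limma adjusted p = 3.6e-07). LAPTM5, a lysosomal protein of blood cells, had 3982, 4008, 4323 and 4548, against 3213 and 3344 (log2 0.36, SE 0.03, limma adjusted p = 1.9e-07). CD68, the macrophage sialomucin, had 1979, 1787, 1835 and 1871, against 2764 and 2766 (log2 -0.57, SE 0.04, limma adjusted p = 1.9e-08). These 3 stood clear of their 0 h libraries, CD68 below and the others above. LAMP1 had 3562 to 3798 against 4112 and 4032 (log2 -0.16, limma adjusted p = 0.0016), but with quantile normalization its log2 difference was 0.014. MAN2B1, a mannosidase, was higher (log2 0.32, limma adjusted p = 0.0042) and HEXA, a subunit of beta-hexosaminidase, lower (log2 -0.21, limma adjusted p = 0.0078). Without 0 h replicate 1 both of these calls ended, at limma adjusted p = 0.068 for MAN2B1 and 0.065 for HEXA, within ranges over all alternatives of 0.001 to 0.068 and 0.0011 to 0.74. HEXA also ended with quantile normalization.

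**Figure D2:**
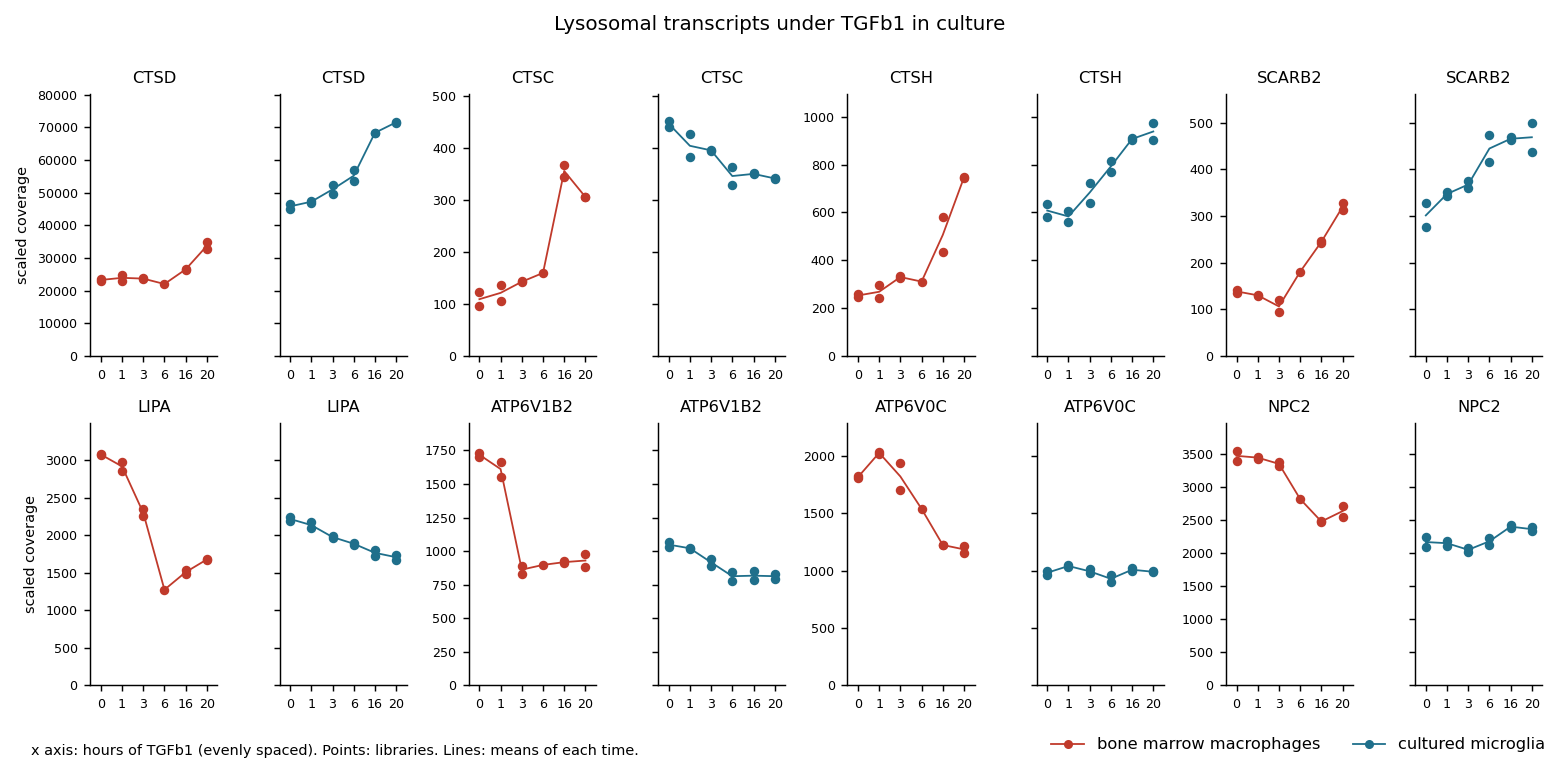
Scaled coverage (y axis, from 0; the same scale in both panels of a gene) of 8 members by hours of TGFb1 (x axis, evenly spaced), in bone marrow macrophages (left panel of each pair) and cultured microglia (right panel). Points are libraries and lines join the means. LIPA and ATP6V1B2 go down in both cells and further in macrophages, while CTSC goes up in macrophages alone among these 2 cells.

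At 3 and 6 h the macrophages had 11 members lower and 4 higher than at 0 h, against 6.44% of all genes lower and 6.8% higher. The members' median log2 difference was -0.11, against 0 to the second decimal for all genes, and with quantile normalization 16 were lower and 2 higher. ATP6V1B2 had already 832 and 893 at 3 h and 898 at 6 h (log2 -0.96, SE 0.06, limma adjusted p = 7.4e-10). LIPA had 2346 and 2256 at 3 h and 1276 at 6 h (log2 -0.84, SE 0.04, limma adjusted p = 5.3e-12). ATP6V1A had 416, 407 and 194 (log2 -1.04, SE 0.09, limma adjusted p = 7.4e-08). These 3 calls held whichever library was left out. ATP6V1B2 thus stood near its later values by 3 h, while LIPA and ATP6V1A were lowest in the single library of 6 h.

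The remaining calls at 3 and 6 h leaned on single libraries. ATP6V0D2 (log2 -1.16), HEXA (-0.34), GLA (-0.52), NPC2 (-0.18), CD68 (-0.20), ASAH1 (-0.30), LGMN (-0.18) and NPC1 (-0.37) were lower, and CTSC (0.47), LAPTM5 (0.15), CTSL (0.20) and CTSH (0.34) higher. Here GLA is an alpha-galactosidase, ASAH1 acid ceramidase and LGMN an asparagine-specific protease. Without the single 6 h library 6 of all calls at 3 and 6 h were kept, ATP6V1B2, LIPA and ATP6V1A among them. In all 7 members then passed. The calls of ATP6V0D2, HEXA, GLA, NPC2, CD68, ASAH1, LGMN, NPC1 and CTSL ended at limma adjusted p = 0.094 to 0.63. Without 0 h replicate 1, 8 of all calls at 3 and 6 h were kept, again with ATP6V1B2, LIPA and ATP6V1A among them. Those of NPC2, ASAH1, LGMN, NPC1, CTSH, CTSL and LAPTM5 ended at 0.072 to 0.22. Without 0 h replicate 2 those of CTSC, CTSH and NPC1 ended at 0.14 to 0.17, without 3 h replicate 1 those of CTSH and LGMN at 0.058 and 0.065, and without 3 h replicate 2 that of NPC1 at 0.087. Quantile normalization ended those of CTSL and LAPTM5. Over all alternatives the adjusted p of these 12 calls ran from 1.7e-05 to 0.63. At 1 h no member passed in macrophages in limma, against 2.08% of all genes higher and 0.932% lower. At an unadjusted p under 0.05 there were 7 members, and with quantile normalization 1 was lower. Of the 39 members 7 were lower at both later times (ATP6V0D2, ATP6V1A, ATP6V1B2, CD68, HEXA, LIPA and NPC2), 3 were higher at both (CTSC, CTSH and LAPTM5), and 6 were lower at 16 and 20 h alone (ATP6V0C, CTSA, CTSB, CTSZ, LAMP1 and PSAP).

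Cultured microglia leaned the other way. After 16 and 20 h of TGFb1, 11 of 39 members were higher and 3 lower than at 0 h, against 1.5% of all genes higher and 1.51% lower. Here too the median SE was 0.07 over the members and 0.26 over all genes. The members' median log2 difference was 0.06, that of all genes 0.01, and with quantile normalization 10 were higher and 5 lower. The rises were in 5 of 12 proteases, 3 of 6 glycosidases, 2 of 5 membrane proteins and NPC2, and the falls in LIPA, PSAP and ATP6V1B2. Microglial markers were higher at the same time, with 5 of 10 called and a share of 0.950% ± 0.00154 at 16 h and 0.964% ± 0.0126 at 20 h, against 0.700% ± 0.00535 at 0 h (SD, n = 2 each). The astrocyte markers were at 0.0479 to 0.0519% at 16 and 20 h, against 0.0366% in both libraries of 0 h. Whether either has a part in the rises was not tested.

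CTSD had 68325 and 68391 at 16 h and 71467 and 71679 at 20 h in cultured microglia, against 45148 and 46535 at 0 h, a 1.53-fold rise (log2 0.61, SE 0.03, limma adjusted p = 8.6e-11). It was among the 2 genes of highest coverage in all 12 of these libraries and the highest in 4. At 3 h it stood at 49742 and 52333 and at 6 h at 53625 and 56824, so that each later time lay above the one before. CTSH had 903, 910, 975 and 901 at 16 and 20 h, against 581 and 634 (log2 0.60, SE 0.09, limma adjusted p = 0.00062). SCARB2 had 469, 463, 438 and 500, against 276 and 327 (log2 0.63, SE 0.10, limma adjusted p = 0.0005). CTSS, a protease that also trims the class II invariant chain, had 4045, 3888, 4050 and 3785, against 3195 and 3363 (log2 0.27, SE 0.04, limma adjusted p = 0.00011). GUSB, the beta-glucuronidase, had 696, 744, 809 and 771, against 585 and 582 (log2 0.37, SE 0.06, limma adjusted p = 0.0013). In all 5 genes the late libraries lay above those at 0 h.

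Smaller rises passed for LAPTM5 (log2 0.19, limma adjusted p = 0.0016), CTSL (0.25, 0.0028), MAN2B1 (0.32, 0.013), HEXA (0.21, 0.021), CTSZ (0.18, 0.024) and NPC2 (0.14, 0.046). The calls of HEXA, CTSZ and NPC2 each ended without 5 of the 6 libraries, at limma adjusted p = 0.056 to 0.66. Only 16 h replicate 2 could be left out for HEXA, 20 h replicate 2 for CTSZ and 0 h replicate 1 for NPC2. Quantile normalization ended HEXA and NPC2 too, and over all alternatives the adjusted p of the 3 ran from 0.015 to 0.94. That of CTSL ended without 0 h replicate 1 (0.070) and that of MAN2B1 without 0 h replicate 2 (0.30), within 0.0017 to 0.23 and 0.0086 to 0.30 over all alternatives. LIPA fell here too, with 1804, 1730, 1741 and 1676 at 16 and 20 h against 2244 and 2193 at 0 h (log2 -0.35, SE 0.03, limma adjusted p = 2.1e-06). PSAP had 6880, 6766, 6333 and 6553, against 7721 and 7665 (log2 -0.21, SE 0.03, limma adjusted p = 0.0001). ATP6V1B2 had 852, 784, 831 and 796, against 1031 and 1067 (log2 -0.36, SE 0.05, limma adjusted p = 0.0004). The other pump subunits did not pass, ATP6V0C standing at 986 to 1022 against 998 and 964.

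At 3 and 6 h cultured microglia had 2 members higher (CTSD, log2 0.21; SCARB2, 0.43) and 2 lower (LIPA, -0.20; ATP6V1B2, -0.28), against 0.608% of all genes higher and 0.551% lower. The median log2 difference was 0.01 for the members and -0.01 for all genes. Quantile normalization gave 1 higher and 2 lower. The CTSD call (limma adjusted p = 0.0003) held whichever library was left out. It ended with quantile normalization, which holds down changes of the most abundant genes. That of LIPA ended without 0 h replicate 1 (0.086), that of ATP6V1B2 without 0 h replicate 1 (0.067) or 2 (0.19), and that of SCARB2 without any library but 6 h replicate 2 (0.051 to 0.54). Over all alternatives the adjusted p of these last 3 ran from 0.0027 to 0.54. The count was 1 without 0 h replicate 1 and 2 without 0 h replicate 2. At 1 h no member passed in limma, with 0.243% of all genes higher and 0.0973% lower, and 1 member was at an unadjusted p under 0.05.

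**Figure D3:**
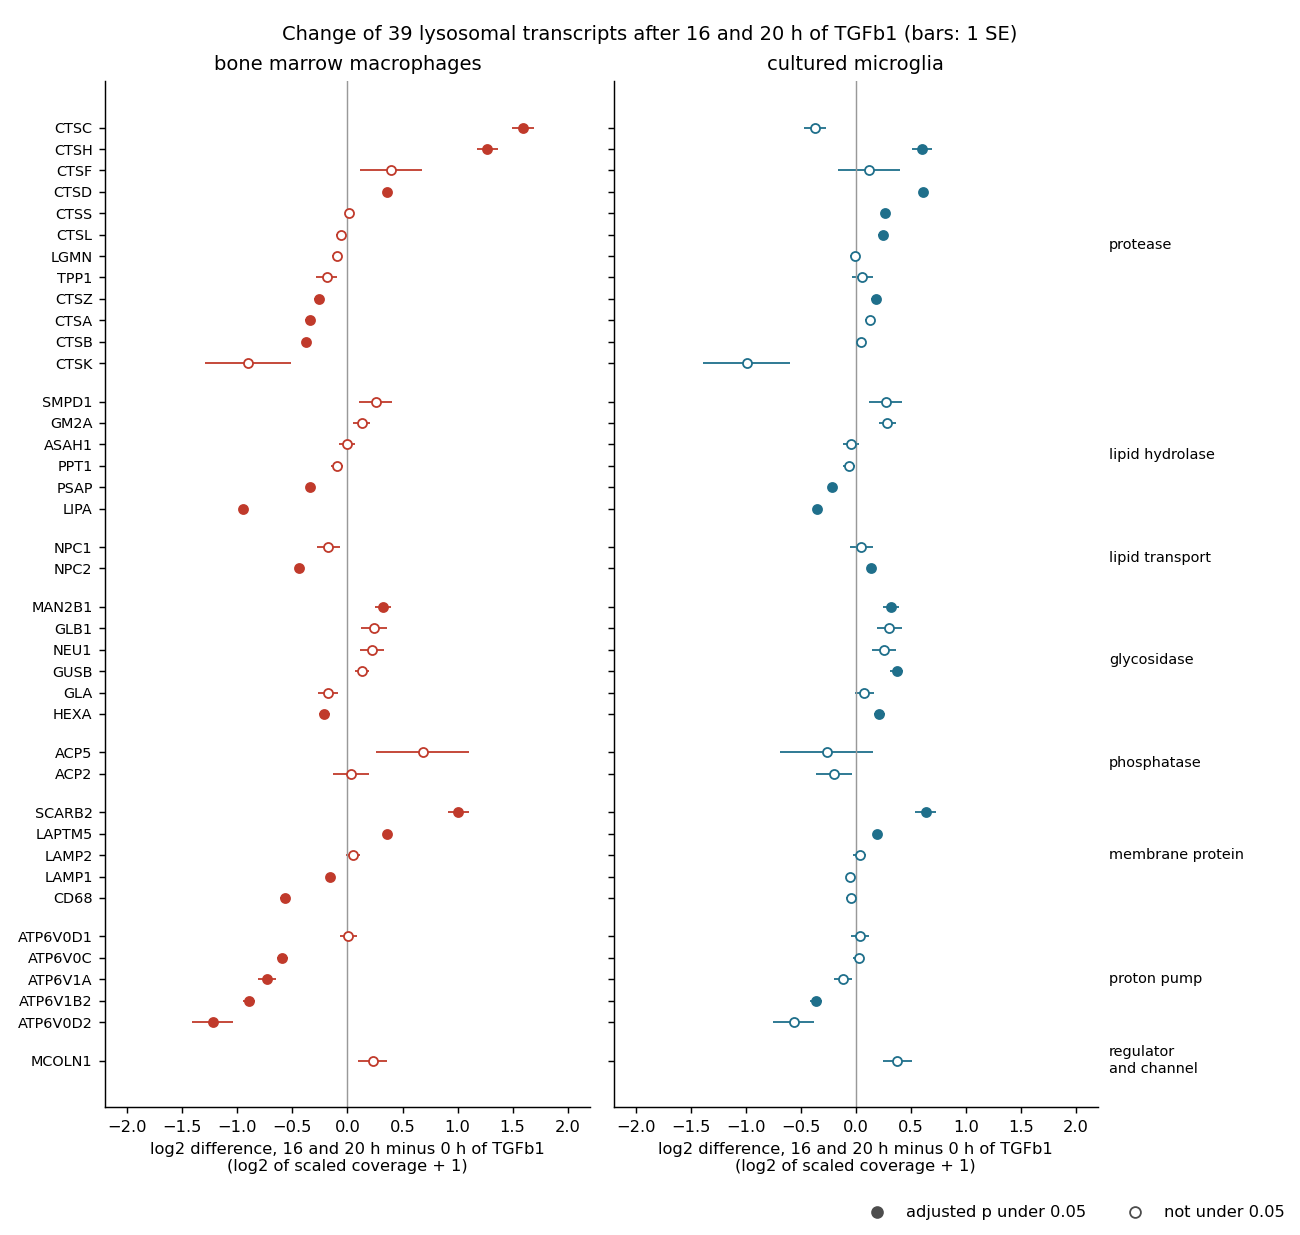
Log2 difference of 39 members between 16 and 20 h and 0 h of TGFb1 (x axis, log2 of scaled coverage + 1; bars are 1 SE) in bone marrow macrophages (left) and cultured microglia (right), ordered by role and by the value in macrophages (y axis). Filled points passed in limma. Of the 5 pump subunits 4 are filled to the left of 0 in macrophages and 1 in microglia.

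The 2 cultured cells differed in the size of their response, by a test of the difference itself. At 16 and 20 h the change in macrophages minus that in microglia was below 0 in 13 members and above 0 in 2, against 1.89% and 2.49% of all genes. With quantile normalization 8 were below and 5 above. The members' median was -0.15, against -0.01 over all genes. CTSC differed most (log2 1.96, SE 0.14, limma adjusted p = 4.4e-08): its 3.02-fold rise in macrophages stood beside 352, 350, 343 and 341 at 16 and 20 h in microglia, against 453 and 442 at 0 h, which did not pass (limma adjusted p = 0.056). CTSH rose in both and further in macrophages (difference of log2 0.67, SE 0.13, limma adjusted p = 0.0048). The falls of LIPA (-0.60, SE 0.05, limma adjusted p = 2.2e-07) and ATP6V1B2 (-0.53, SE 0.08, limma adjusted p = 0.00022) were both larger in macrophages. ATP6V0C (-0.62), ATP6V1A (-0.61), CD68 (-0.52), CTSA (-0.47) and CTSB (-0.42) fell in macrophages and did not pass in microglia, and each differed (limma adjusted p = 5.1e-05 or less, and 0.0026 for ATP6V1A).

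Opposite directions, lower in macrophages and higher in microglia, were called for 3 members, namely NPC2 (difference -0.58), CTSZ (-0.44) and HEXA (-0.42), with limma adjusted p = 7.5e-07, 0.00017 and 0.00097. These differences held whichever library was left out, but the rises in microglia each ended without 5 of the 6 libraries, and the fall of HEXA in macrophages without 0 h replicate 1. CTSL (-0.31) and CTSS (-0.25) rose in microglia alone, and the difference passed for both, but ended for CTSL without macrophage 0 h replicate 2 (limma adjusted p = 0.063, range 0.0016 to 0.24) and for CTSS without microglia 0 h replicate 1 (0.053, range 0.0023 to 0.72). With quantile normalization the differences of CTSB, CTSL, CTSS and HEXA did not pass. CTSD rose in both cells and less in macrophages (difference -0.25, limma adjusted p = 0.00089), but with quantile normalization its difference was 0.34. That normalization holds down changes of the most abundant genes, and CTSD was among the 2 of highest coverage in all 12 microglia libraries. It so cannot decide the CTSD difference at either time. At 3 and 6 h the difference was below 0 in 8 members and above 0 in 1, against 2.25% and 3.14% of all genes, with a median of -0.15 for the members and 0.01 for all genes. ATP6V1A (-1.08), ATP6V1B2 (-0.68), LIPA (-0.65) and CTSC (0.75) kept that call whichever library was left out, as did CTSD (-0.24), which ended with quantile normalization. Those of HEXA (-0.32), ATP6V0D2 (-0.99), LGMN (-0.24) and GLA (-0.46) ended without the single 6 h library (limma adjusted p = 0.25 to 0.92) and without 1 to 9 other libraries, microglia 0 h replicate 2 in the case of HEXA. Of the 39 members 17 passed in neither cell and in no difference at 16 and 20 h.

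Before any hours of TGFb1 the 2 cultures already differed widely in these genes. At 0 h 25 of 39 members were higher and 6 lower in macrophages than in microglia, against 21.5% of all genes higher and 29.6% lower. The members' median was 0.34, against -0.13 over all genes, and quantile normalization, which moved the median of all genes by 0.16, gave 16 higher and 9 lower. All 5 pump subunits were higher in macrophages as scaled by the authors, but with quantile normalization ATP6V1A was at -0.065 and ATP6V0D1 did not pass. ATP6V0D2 had 230 and 199 in macrophages, against 66.0 and 66.8 in microglia (log2 1.67, SE 0.22, limma adjusted p = 2.5e-06). CTSL had 3522 and 3876, against 1355 and 1384 (log2 1.43, SE 0.05, limma adjusted p = 2.4e-14), and CTSS 6034 and 6221, against 3195 and 3363 (log2 0.90, SE 0.04, limma adjusted p = 6.1e-13). CTSK had 64.5 and 69.8 in macrophages and 2.18 and 3.71 in microglia (limma adjusted p = 2.3e-07), and ACP5, the tartrate-resistant phosphatase, had 40.4 and 29.4 against 4.35 and 1.86 (limma adjusted p = 1.8e-05). Microglia held so few reads of these 2 genes that no fold is given. ATP6V0D2, CTSK and ACP5 are also known as osteoclast genes, and of the 7 osteoclast genes with a row they were higher in macrophages together with ITGB3, while TNFRSF11A was lower. Other cell types differed here too: of the neuronal markers 6 of 6, of the oligodendrocyte markers 7 of 8 and of the astrocyte markers 6 of 9 were lower in macrophages, and their part was not tested.

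Microglia exceeded macrophages at 0 h in CTSD, LGMN, CTSC, CTSH, SCARB2 and CTSF. CTSD had 23732 and 22887 in macrophages, against 45148 and 46535 in microglia (log2 -0.98, SE 0.03, limma adjusted p = 8.2e-15). LGMN had 2006 and 1862, against 3922 and 4297 (log2 -1.09, SE 0.05, limma adjusted p = 2.0e-12). CTSC had 124 and 95.5, against 453 and 442 (log2 -2.03, SE 0.12, limma adjusted p = 1.9e-11). In each of the 3 the macrophage libraries lay below both microglia libraries. CTSH (-1.26), SCARB2 (-1.11) and CTSF (-2.02), the last a cysteine protease, were lower too, and all 6 stayed so with quantile normalization. Of these 6 members CTSC, CTSH, SCARB2 and CTSD then rose in macrophages by 16 and 20 h. Both comparisons used the same macrophage libraries of 0 h, so they are not independent of each other. The macrophage values of CTSC at 16 h, 367 and 345, overlapped those of microglia at 16 h, 352 and 350, which were below the microglia values of 0 h. At 20 h macrophages lay below microglia again, at 306 and 306 against 343 and 341. In CTSD, CTSH and SCARB2 every macrophage library of 16 and 20 h lay below all microglia libraries of these times. The calls of CTSB (log2 0.14) and ATP6V1A (0.24) at 0 h ended without 1 library, CTSB without microglia replicate 1 (limma adjusted p = 0.052), and ATP6V1A without macrophage replicate 1 (0.45) or microglia replicate 1 (0.17) or 2 (0.082). Over all alternatives these ran from 3.1e-14 to 0.25 for CTSB, the lowest with quantile normalization in the other direction, and from 0.0078 to 0.59 for ATP6V1A. With quantile normalization PSAP (-0.037), CTSB (-0.52) and LAPTM5 (-0.084) changed sign.

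In the injured spinal cord the members were measured with far fewer reads and fewer calls passed. In sorted cells, fewer cells of a type and less RNA per cell cannot be told apart. In sorted microglia the 37 members summed to 1.55% ± 0.155 of coverage at time 0 (SD, n = 3). With 2 libraries at each later time, the sum was 1.16% ± 0.303 at 1 h and 1.52% ± 0.314 at 16 h. Day 1 gave 2.06% ± 0.0531, day 3 gave 2.96% ± 1.40 and day 7 gave 2.504% ± 0.135. Monocytes held 1.79% ± 0.0355 at 16 h. Their later values were 2.44% ± 0.281 on day 1, 3.23% ± 0.267 on day 3 and 2.90% ± 0.462 on day 7. The late microglia libraries lay above those of time 0, but at day 3 replicate 1 held 1.97% of members beside 16.9% of neutrophil markers, and replicate 2 held 3.95% beside 4.33%. Below, 16 h and day 1 together are called acute, and day 3 and day 7 late. Libraries said below not to overlap, or to lie apart, are so described from their values alone. The share of all genes without overlap was not counted.

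CTSD was the member with the clearest course after injury. In sorted microglia it had 730 and 1543 at day 3 and 1245 and 1137 at day 7, against 233 and 332 at 16 h and 504 and 620 at day 1. The 4 late libraries lay above the 4 acute ones, a 2.85-fold difference (log2 1.51, SE 0.23, limma adjusted p = 0.00029). At time 0 it had 411, 549 and 612, and the late libraries lay above these as well without passing (log2 1.12, SE 0.25, limma adjusted p = 0.055). MAN2B1 had 77.4, 104, 102 and 137 in the late microglia, against 56.9, 56.3, 33.4 and 13.8 in the acute ones (log2 1.53, SE 0.33, limma adjusted p = 0.011). HEXA had 52.8, 60.3, 52.6 and 133, against 26.0, 22.7, 25.6 and 16.1 (log2 1.59, SE 0.40, limma adjusted p = 0.036). Acute and late libraries did not overlap in either gene, while the values at time 0, 51.0 to 88.7 for MAN2B1 and 39.8 to 76.4 for HEXA, overlapped the late ones in both. These were the 3 members called higher, with none lower, against 0.28% of all genes higher and 0.998% lower. The median log2 difference was 0.36 over the members and -0.02 over all genes.

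**Figure D4:**
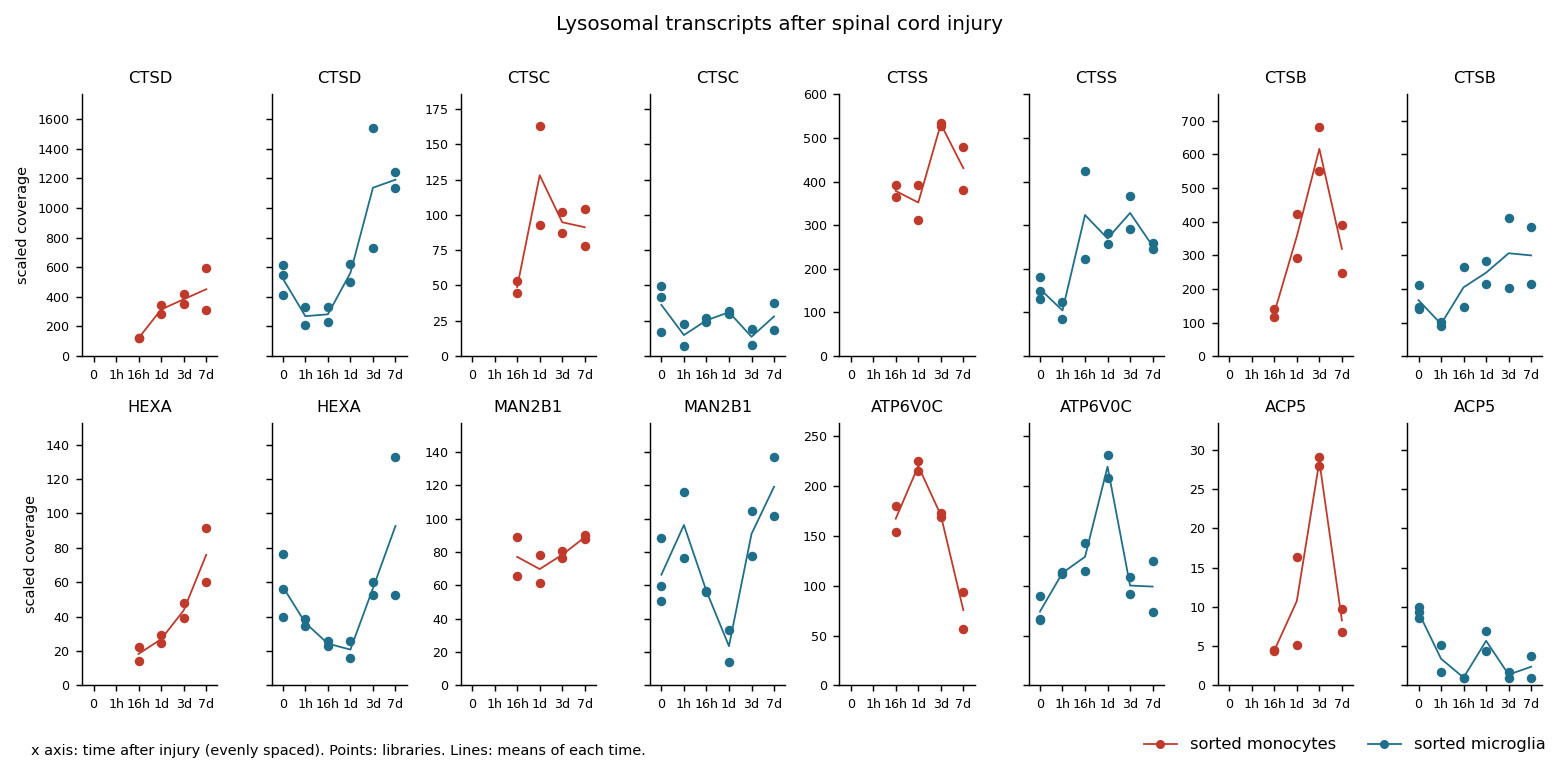
Scaled coverage (y axis, from 0; the same scale in both panels of a gene) of 8 members by time after injury (x axis, evenly spaced), in sorted monocytes (left panel of each pair, from 16 h on) and sorted microglia (right panel, from time 0). Points are libraries and lines join the means. CTSD in microglia stands at 730 or more in all late libraries, and CTSC lies higher in the late monocytes than in the late microglia.

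The late calls of MAN2B1 and HEXA leaned on single libraries. Without 16 h replicate 2 or day 1 replicate 2, both with erythroid RNA above 0.1%, MAN2B1 did not pass (limma adjusted p = 0.066 and 0.085) and CTSD was the 1 member left. HEXA also ended without 16 h replicate 1, day 1 replicate 1, day 3 replicate 2 or day 7 replicate 2 (0.053 to 0.081). Without day 3 replicate 1, the one with more neutrophil RNA, 6 members were higher. Without the 4 libraries with erythroid RNA, and so with fewer libraries in the fit, no member passed. CTSD then had a larger difference (log2 1.71, limma adjusted p = 0.058), MAN2B1 had 1.22 (0.33) and HEXA 1.38 (0.48). Over all alternatives the adjusted p of CTSD ran from 3.7e-05 to 0.058, that of MAN2B1 from 0.0065 to 0.33 and that of HEXA from 0.0090 to 0.48. The neutrophil markers were at 4.33 to 16.9% of coverage in the late microglia and 7.89 to 14.98% in the acute ones, with none of 11 called in this comparison. Of the 10 microglial markers OLFML3 was higher, at a summed 0.240 to 0.682% against 0.141 to 0.238%. When the 13 microglia libraries were fitted by themselves, with or without the neutrophil share as a covariate, CTSD was the 1 member called.

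Against time 0 the acute microglia had 2 members higher, with 1.19% of all genes higher and 0.329% lower, and a median log2 difference of 0.03 over the members and 0.10 over all genes. ATP6V0C had 115 and 143 at 16 h and 231 and 208 at day 1, against 90.1, 67.0 and 65.4 at time 0 (log2 1.18, SE 0.28, limma adjusted p = 0.022). CTSS had 224, 423, 258 and 281, against 149, 181 and 131 (log2 0.91, SE 0.23, limma adjusted p = 0.037). The groups did not overlap in either gene, but neither call was firm. Without time 0 replicate 3, 16 h replicate 2, day 1 replicate 1 or day 1 replicate 2 no member passed (limma adjusted p = 0.053 to 0.21), nor did ATP6V0C without time 0 replicate 2 (0.062) or CTSS without time 0 replicate 1 (0.088). Neither passed without the erythroid libraries, in a fit of the microglia alone or with the replicate number as a block, and over all alternatives the adjusted p ran from 0.016 to 0.54 for ATP6V0C and from 0.0069 to 0.63 for CTSS, which also ended with quantile normalization. The neutrophil share was 7.89 to 14.98% in the acute libraries and 16.0 to 22.2% at time 0, and of its 11 markers STFA2L1 was higher.

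At 1 h no member passed in limma, with 0.0243% of all genes higher and 0.0487% lower. The members' median log2 difference was -0.34, against 0.00 over all genes, with 11 of 37 above 0 and 5 at an unadjusted p under 0.05. CTSD had 208 and 331 at 1 h, against 411, 549 and 612 at time 0 (limma adjusted p = 0.29), and CTSB had 90.4 and 101, against 212, 147 and 140 (0.59). Neutrophil markers stood at 20.98 and 22.7% at 1 h, against 16.0 to 22.2% at time 0. In the late microglia no member passed against time 0, with 0.0122% of all genes higher and 0% lower. The median was 0.40 over the members and 0.05 over all genes, and 11 members were at an unadjusted p under 0.05. CTSZ had 137 and 358 at day 3 and 188 and 116 at day 7, against 43.1, 70.8 and 79.4 at time 0 (log2 1.52, SE 0.34, limma adjusted p = 0.055). The groups did not overlap in CTSZ, nor in CTSS and CTSA, which lay higher late, or ACP5 and ATP6V1B2, which lay lower. With a filter on low values or with the replicate block 2 members passed, without day 3 replicate 1 it was 4, without time 0 replicate 2 or day 7 replicate 2 it was 2, and without time 0 replicate 3 it was 1.

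In sorted monocytes CTSD also lay higher late than acute. It had 417 and 350 at day 3 and 310 and 593 at day 7, against 122 and 121 at 16 h and 282 and 347 at day 1 (log2 1.05, SE 0.23, limma adjusted p = 0.017). The late and acute libraries overlapped, and the lowest values were those of 16 h. It was the 1 member called, against 0.11% of all genes higher and 0.73% lower, at a median of 0.29 over the members and 0.03 over all genes. The call ended without 16 h replicate 1 or 2, day 1 replicate 1, day 3 replicate 1 or 2, or day 7 replicate 2 (limma adjusted p = 0.055 to 0.26), and over all alternatives the adjusted p ran from 0.0065 to 0.44. CTSB had 682 and 552 at day 3 and 246 and 391.6 at day 7, against 141, 117, 292 and 421 in the acute libraries, and did not pass (limma adjusted p = 0.057). PSAP had 163, 125, 221 and 217, against 66.9, 80.7, 73.0 and 103, and HEXA 48.0, 39.2, 60.3 and 91.5, against 14.1, 22.6, 24.6 and 29.3. The late libraries lay above the acute ones in both of these genes without passing (limma adjusted p = 0.14 and 0.15). LIPA had 24.6, 45.9, 30.6 and 34.5, against 3.90, 4.48, 7.70 and 21.4, with the same lack of overlap (limma adjusted p = 0.43). CTSA, at 111 to 125 late against 57.5 to 72.6 acute, and SCARB2, at 15.1 to 28.9 against 7.30 to 14.7, were also apart without passing. The monocyte markers summed to 0.764 to 1.14% in the late and 1.4995 to 1.75% in the acute monocyte libraries, with THBS1 of 8 called lower. The microglial markers summed to 0.0729 to 0.248% late and 0.0202 to 0.0627% acute, with CX3CR1 of 10 called higher, and their part in the result was not tested.

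Set beside each other late after injury, monocytes had less CTSD and more CTSC than sorted microglia. CTSD had 417, 350, 310 and 593 in monocytes, against 730, 1543, 1245 and 1137 in microglia (log2 -1.47, SE 0.23, limma adjusted p = 0.0002). CTSC had 87.4, 102, 78.2 and 104 in monocytes, against 19.4, 8.04, 18.8 and 37.4 in microglia, 4.83-fold higher (log2 2.27, SE 0.45, limma adjusted p = 0.0029). The 2 cells did not overlap in either gene, and both calls held whichever library was left out and without the erythroid libraries. ACP5 had 27.9, 29.1, 6.80 and 9.75 in monocytes, against 1.76, 1.00, 3.76 and 1.00 in microglia (limma adjusted p = 0.012). LIPA had 24.6, 45.9, 30.6 and 34.5, against 3.52, 4.02, 1.00 and 16.6 (limma adjusted p = 0.049). Microglia held 0 or 1 read of ACP5 in each library, so no fold is given for it. In these microglia libraries 1 read was worth 1.76 and 4.02 at day 3 and 3.76 and 4.15 at day 7. The microglia values of LIPA and CTSC so rested on few reads too, and the fold of CTSC is a rough one. These 4 calls, 3 higher and 1 lower, stood against 1.27% of all genes higher and 1.33% lower, with a median of 0.30 over the members and 0.10 over all genes, which quantile normalization shifted by -0.10. The call of ACP5 ended without monocyte day 3 replicate 1 (0.063) or 2 (0.076) or day 7 replicate 2 (0.066), within 0.0032 to 0.076 over all alternatives. That of LIPA ended without every late library but microglia day 7 replicate 2 (0.083 to 0.24), over a range of 0.011 to 0.24. Without monocyte day 3 replicate 1 or 2 or day 7 replicate 2 the count was 2. All 11 neutrophil markers were lower in these monocytes, at 0.1005 to 0.528% against 4.33 to 16.9%, and 4 of 8 monocyte markers were higher.

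In the acute phase CTSD was lower in monocytes too, at 122, 121, 282 and 347 against 233, 332, 504 and 620 in microglia (log2 -1.01, SE 0.23, limma adjusted p = 0.0079). Monocytes and microglia overlapped there because day 1 monocytes reached the values of 16 h microglia. This was the 1 member called, with 1.91% of all genes lower and 1.01% higher, at a median of 0.26 over the members and 0 over all genes. It ended without microglia 16 h replicate 2 (0.068) or day 1 replicate 2 (0.081) or monocytes day 1 replicate 1 (0.059), as well as with quantile normalization, and the adjusted p over all alternatives ran from 0.0036 to 0.62. Without microglia day 1 replicate 1 the count was 3. CTSC had 53.3, 44.5, 93.1 and 163 in acute monocytes, against 24.0, 26.7, 32.2 and 29.9 in acute microglia, with no overlap and without passing (limma adjusted p = 0.083). GM2A, the activator of ganglioside breakdown, had 75.2, 73.6, 63.2 and 107, against 19.0, 25.7, 46.7 and 16.1, also apart (0.059). CD68, at 57.4 to 69.2 against 21.96 to 56.7, and MAN2B1, at 61.25 to 88.8 against 13.8 to 56.9, lay apart the same way without passing. PPT1 lay apart the other way, at 30.4 to 46.7 in acute monocytes against 48.4 to 82.9 in acute microglia, and did not pass. In the test of whether the change between the phases differed between the cells no member passed in limma, while 2 were at an unadjusted p under 0.05, with 0% of all genes above and 0.0122% below. The median difference was -0.01 over the members and 0.09 over all genes.

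CTSF stood at a few reads in the sorted cells. Monocyte 16 h replicate 1 had 0.170, the worth of 1 read, and all other monocyte libraries had no read, listed as 1. In late microglia CTSF had 1.76, 4.02, 7.52 and 12.5, the worth of 1, 1, 2 and 3 reads. Late monocytes against late microglia did not pass (limma adjusted p = 0.062).

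The lysosome beyond the 40 members was covered by 6 further lists, which were put together with earlier results of these data known. At 16 and 20 h their counts stand against 5.94% of all genes lower and 6.32% higher in macrophages, and 1.51% lower and 1.5% higher in microglia. Of 15 other pump subunits and accessory proteins with a row in culture, 8 were lower and 0 higher in macrophages at 16 and 20 h, with a median log2 difference of -0.22. ATP6V0A1, a subunit of the membrane-bound part of the pump, had the smallest p (log2 -1.22, SE 0.08, limma adjusted p = 1.7e-09). In cultured microglia ATP6V0A1 alone passed among these 15 (log2 -0.42, SE 0.08, limma adjusted p = 0.0037). Of 25 other hydrolases 5 were higher and 4 lower in macrophages and 4 higher and 0 lower in microglia at that time. Of 19 other membrane proteins 3 were lower and 0 higher in macrophages, led by TPCN2 (log2 -0.78, limma adjusted p = 4.2e-05), and in microglia CD63 was higher (0.22, limma adjusted p = 0.027). Of 12 sorting genes LRP1 was higher in macrophages (0.17, limma adjusted p = 0.036) and GRN, progranulin, higher in microglia (0.26, limma adjusted p = 3.6e-05).

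Genes that tie TFEB and its relatives to mTORC1 had 8 of 15 rows in culture. RRAGD and RRAGA, small GTPases of the lysosome surface, were lower in macrophages at 16 and 20 h, RRAGD with log2 -1.14 (SE 0.21, limma adjusted p = 0.00063), and none passed in microglia. The protein inhibitors of cathepsins had 4 rows. CSTB, cystatin B, was lower in macrophages (log2 -0.48, SE 0.05, limma adjusted p = 7.6e-07), and in microglia CST3, cystatin C, was higher (0.28, SE 0.04, limma adjusted p = 0.00024) and CSTB lower. In the sorted cells these lists gave few calls. LYZ2, lysozyme, was lower in acute microglia than at time 0 (log2 -1.26, SE 0.19, limma adjusted p = 0.00032) and higher late than acute (0.94, SE 0.17, limma adjusted p = 0.0029), and GRN was higher late than acute in microglia (0.96, SE 0.23, limma adjusted p = 0.025). LYZ2, which neutrophils express as well, had 995, 577, 515 and 559 in acute microglia beside 14.98, 11.4, 7.89 and 10.7% of neutrophil markers, against 1858, 1454 and 1312 at time 0 beside 22.2, 18.8 and 16.0%. In late microglia it had 1344, 812, 1679 and 1239 beside 16.9, 4.33, 15.01 and 14.6%. The part of neutrophil RNA in these differences was not tested. Monocytes had less CD63 than microglia in the acute phase (-2.53, SE 0.45, limma adjusted p = 0.00057).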

How the data were processed

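RNA of sorted and cultured mouse cells was sequenced in 44 libraries. Per the submitters' processing notes, TopHat and mouse build mm9 were used. Of how coverage was counted and scaled, the labels and headers used here say nothing. The authors deposited scaled coverage per gene (signal) in 2 tables, in which a gene without a read has the value 1. Within 0.05 of a step most low values are whole multiples of a smallest step, but not enough of them for a count model, so estimated reads serve as a description of depth only. The line without a gene name, at most 0.0165% of a library, was dropped, and 0 columns were unused.

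Each table was fitted once with limma 3.58.1 in R 4.3.3 on log2(value + 1), with 1 coefficient per group, a trend and robust variance and 11 residual degrees of freedom. All groups of a table shared 1 estimate of the spread per gene, so sorted microglia and the deeper monocyte libraries were pooled in it. Of 5 calls within sorted microglia, 4 ended when the microglia were fitted alone. The p-values are two-sided and were adjusted by Benjamini and Hochberg over all genes, and calls were made under 0.05. Fold changes are on the log2(value + 1) scale and understate changes of low genes. The design had foreseen count tests in case the files held counts, and the test for normalized values was used instead. The fit was tested on simulated data first.

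Groups follow the titles. The members and all other lists were chosen with earlier results of these data known. Members are named by role, with full statistics for up to 10 per direction by smallest p, and other lists by their counts and the gene of smallest p. One gene of these lists is not reported here. Alternatives were a pseudocount of 4, a minimum of 10 in 2 libraries, quantile normalization, no trend or robust step, a replicate block, the sorted microglia alone with and without the neutrophil share, and each library left out. Rescaling by the median ratio and leaving out the 4 libraries with over 0.1% erythroid RNA were added after seeing the data.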

Additional observations from a re-analysis of the deposited data

Results flagged for a closer look

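Each value below is the log2 change in macrophages minus that in cultured microglia, and was picked out because the test of this difference passed in limma. At 3 and 6 h of TGFb1 these were CTSC (0.75), LIPA (-0.65), ATP6V1A (-1.08), ATP6V1B2 (-0.68), CTSD (-0.24), HEXA (-0.32), ATP6V0D2 (-0.99), LGMN (-0.24) and GLA (-0.46). At 16 and 20 h the members with a value above 0 were CTSC (1.96) and CTSH (0.67). Below 0 at 16 and 20 h were the lipid genes LIPA (-0.60) and NPC2 (-0.58), and the pump subunits ATP6V0C (-0.62), ATP6V1A (-0.61) and ATP6V1B2 (-0.53). The proteases below 0 were CTSA (-0.47), CTSZ (-0.44), CTSB (-0.42), CTSL (-0.31), CTSS (-0.25) and CTSD (-0.25), next to CD68 (-0.52) and HEXA (-0.42).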

How the results depend on the processing

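Of 118 calls of a member in a comparison, 54 held in every alternative and 79 whichever library was left out; quantile normalization ended 28 and the fit with no trend or robust step 49. In acute microglia against time 0 the count of 2 became 1 with a pseudocount of 4 or quantile normalization, and 0 with the median ratio rescaling, no trend or robust step, the replicate block, the microglia alone with or without the neutrophil share, or without the erythroid libraries. In late microglia against time 0 the count of 0 became 2 with the filter on low values or the block. Late against acute, the count of 3 in microglia became 1 in the microglia alone with or without the neutrophil share and 0 without the erythroid libraries. In monocytes the count of 1 became 2 with the filter or rescaling, 3 with quantile normalization, and 0 with no trend or robust step or without the erythroid libraries. Acute monocytes against microglia had 2 instead of 1 with the filter or the block, and 0 with quantile normalization, no trend or robust step, or without the erythroid libraries. In culture, quantile normalization gave 1 call in macrophages at 1 h. With no trend or robust step, macrophages at 3 and 6 h had 7 calls, microglia had 0 at 3 and 6 h and 4 at 16 and 20 h, and the difference between the cells had 4 at 3 and 6 h and 6 at 16 and 20 h.

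Quantile normalization turned the sign of LAMP1 in macrophages at 16 and 20 h (0.014), of PSAP (-0.037), CTSB (-0.52), ATP6V1A (-0.065) and LAPTM5 (-0.084) between the cells at 0 h, and of the difference of CTSD at 16 and 20 h (0.34). The cause of these changes was not tested. Cultured microglia had CTSD among the 2 genes of highest coverage in all 12 libraries, and quantile normalization holds down changes of such genes. Leaving out 1 library at a time gave counts of 0 to 2 in acute microglia and 0 to 4 in late microglia against time 0, 1 to 6 in late against acute microglia and 0 to 1 in monocytes. Between monocytes and microglia it gave 0 to 3 acute and 2 to 5 late. In culture it gave 7 to 16 in macrophages at 3 and 6 h and 18 to 19 at 16 and 20 h, and 1 to 4 and 10 to 13 in microglia. It gave 29 to 31 between the cells at 0 h, and 6 to 9 and 14 to 16 for the difference between them.

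Libraries of the same replicate number shared little of their deviation from the group mean over all genes. Their correlations ran from -0.025 to 0.064 over 45 pairs in vivo and from -0.014 to 0.029 over 10 in macrophages. Cultured microglia were not checked. With few reads per sorted library, this cannot tell whether such libraries share a mouse or a batch. The block ended 2 of 45 calls. The DESeq2 alternative was not run, since the values are not counts. Few reads per sorted library limit what could be detected there.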
